A study of Mus musculus with 6 samples.

Results

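Krüppel-like factors are transcription factors with 3 zinc fingers at the C-terminus, which bind CACCC and GC-rich sequences in promoters. The 10 genes described here were taken by name: Klf2, Klf3, Klf4, Klf6, Klf7, Klf9, Klf10, Klf11, Klf12 and Klf13. They are 10 of the 41325 gene rows in each library and 10 of the 17 numbered Klf genes among them. Klf1, the erythroid factor of the family, was left out by the choice, as were Klf5, Klf8 and Klf14 to Klf17. All 10 had enough reads to be tested, among 18303 genes tested in all.

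The series held 6 bulk RNA-seq libraries, 3 in each of 2 groups, all from female mice of ICR, an outbred stock, which were 10 weeks old when bought and were kept for 7 days before treatment. Every mouse, controls included, received 5-fluorouracil (5-FU), an antimetabolite that blocks thymidylate synthase, injected into the abdomen on 2 days of each week for 3 weeks in a daily dose of 20 mg/kg. Mice of the elemental diet group were also given 1.6 kcal of Elental, a liquid formula with amino acids in place of protein, in 0.8 mL per day by mouth, in 2 portions on 5 days a week. Mice of the saline group were given saline in the same volume and schedule, and no group went without 5-FU. The labels name 3 mice per group without tying each library to 1 mouse, so p-values measure only the spread between these libraries, which may be technical. Libraries held 29053287 to 33073125 reads assigned to genes.

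The tissue is labelled salivary gland, without saying which gland, and the extraction protocol names fibroblasts or keratinocytes. Of 8 acinar markers, Smgc, Pip, Bpifa1 and Dcpp1 had no read in any library, and the list summed to 3.16 to 4.42 CPM (normalized reads per 1000000) with elemental diet and 5.54 to 5.91 with saline. Markers of 9 erythroid genes summed to 41586 to 42573 CPM with elemental diet, against 2817 to 4495 with saline. Markers of 8 B cell genes went the other way, with 785 to 837 CPM against 5738 to 5933, as did 8 T cell genes, with 61.2 to 67.1 against 409.5 to 503. The libraries are therefore called here by their group only. In bulk libraries fewer cells of a type and less RNA per cell cannot be told apart.

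The factors fall into 3 classes by the partners that their N-terminal parts recruit. Klf2, Klf4, Klf6 and Klf7 act mainly as activators, with acetyltransferases such as CBP and p300. Klf3 and Klf12 repress through the CtBP corepressors, and Klf9, Klf10, Klf11 and Klf13 bind the SIN3 histone deacetylase complex. In lymphocytes Klf2 keeps naive T cells resting and switches on S1pr1, which directs their traffic. In red cell precursors Klf1 switches on Klf3, and Klf10 and Klf11 were first known as genes induced early by TGF-beta.

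The promoters of 4 members are shown because they belong to genes that differed in opposite directions, Klf2 and Klf6 lower and Klf11 and Klf3 higher with elemental diet. Each is the 250 bases before the RefSeq start (GRCm38.p6, plus strand, 5′ to 3′), and capitals mark the CACCC and GGGCGG letters on either strand, the 2 kinds of site that these factors bind. Klf2 lies at chr8:72318812-72319061, Klf6 at chr13:5861239-5861488, Klf11 at chr12:24651121-24651370 and Klf3 at chr5:64803271-64803520. The genes as used for the read counts start inside these windows, Klf2 at 72319033, Klf6 at 5861482, Klf11 at 24651274 and Klf3 at 64803388. Matches near the end of a window can therefore lie within the gene as counted.
Klf2: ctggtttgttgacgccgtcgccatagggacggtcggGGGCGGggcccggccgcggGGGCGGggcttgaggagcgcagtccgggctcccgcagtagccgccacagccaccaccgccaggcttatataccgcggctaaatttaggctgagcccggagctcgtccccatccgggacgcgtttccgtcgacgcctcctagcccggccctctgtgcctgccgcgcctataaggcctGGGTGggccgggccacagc
Klf6: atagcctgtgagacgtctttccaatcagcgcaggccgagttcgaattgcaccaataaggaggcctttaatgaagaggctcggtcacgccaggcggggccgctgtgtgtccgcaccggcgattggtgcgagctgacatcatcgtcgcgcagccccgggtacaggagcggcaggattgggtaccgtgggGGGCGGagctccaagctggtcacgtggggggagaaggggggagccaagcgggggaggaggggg
Klf11: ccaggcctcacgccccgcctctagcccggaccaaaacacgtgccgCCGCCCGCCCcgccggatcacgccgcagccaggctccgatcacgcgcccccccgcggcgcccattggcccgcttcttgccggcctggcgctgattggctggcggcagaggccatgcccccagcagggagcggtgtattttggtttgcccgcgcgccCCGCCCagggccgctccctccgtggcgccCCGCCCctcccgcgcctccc
Klf3: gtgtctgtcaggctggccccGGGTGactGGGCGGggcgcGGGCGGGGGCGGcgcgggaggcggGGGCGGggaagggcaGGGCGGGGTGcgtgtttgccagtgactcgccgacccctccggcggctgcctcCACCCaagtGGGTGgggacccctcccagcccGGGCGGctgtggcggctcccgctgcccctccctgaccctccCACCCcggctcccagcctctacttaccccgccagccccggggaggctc
Klf3 held 5 CACCC and 6 GGGCGG matches, Klf11 4 GGGCGG matches, Klf2 1 and 2, and Klf6 1 GGGCGG match. Matches were counted on both strands and may overlap. RefSeq promoters were matched for 9 of the 10 members, all but Klf10. Of these 9, 7 held GGGCGG, against 32.7% of all 32851 promoters of the same length, and 6 held CACCC, against 52.0%. The GC content of the 9 ran from 48.0% in Klf12 to 78.4% in Klf3, and that of all promoters was not computed. The part of base content in these counts was not tested. A CCAAT box was found in 4 of 9 (33.8% of all promoters), with 4 matches in Klf6 and 3 in Klf9, and the CRE core TGACG in 5 of 9 (17.8%).

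Among the 9 promoters, that of Klf2 alone held a match to the MEF2 consensus, which 2.92% of all promoters hold. MEF2 factors act on Klf2 and Klf4 downstream of the kinase ERK5. The match, in capitals here, ran from 118 to 109 bases before the start (window chr8:72318934-72318963).
Klf2: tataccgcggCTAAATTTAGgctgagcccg
A match is a description of these letters and was not tested for binding.

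The makeup of the Klf transcripts differed between the groups. Deposited TPM values, which are scaled by gene length, allow genes to be compared within a library. With saline, Klf2 led at 256 ± 9.55 TPM (SD, n = 3), followed by Klf13 at 73.1 ± 2.55 and Klf6 at 64.2 ± 1.45. With elemental diet Klf13 led at 71.8 ± 2.51 TPM, followed by Klf3 at 39.5 ± 2.87 and Klf2 at 34.0 ± 5.77. Klf12 was the lowest of the 10 in both groups, at 0.613 ± 0.0206 TPM with elemental diet and 3.48 ± 0.663 with saline. In the saline group no neighbours in the order overlapped, while with elemental diet Klf3 and Klf2, Klf2 and Klf6, and Klf9 and Klf10 did.

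**Figure D1:**
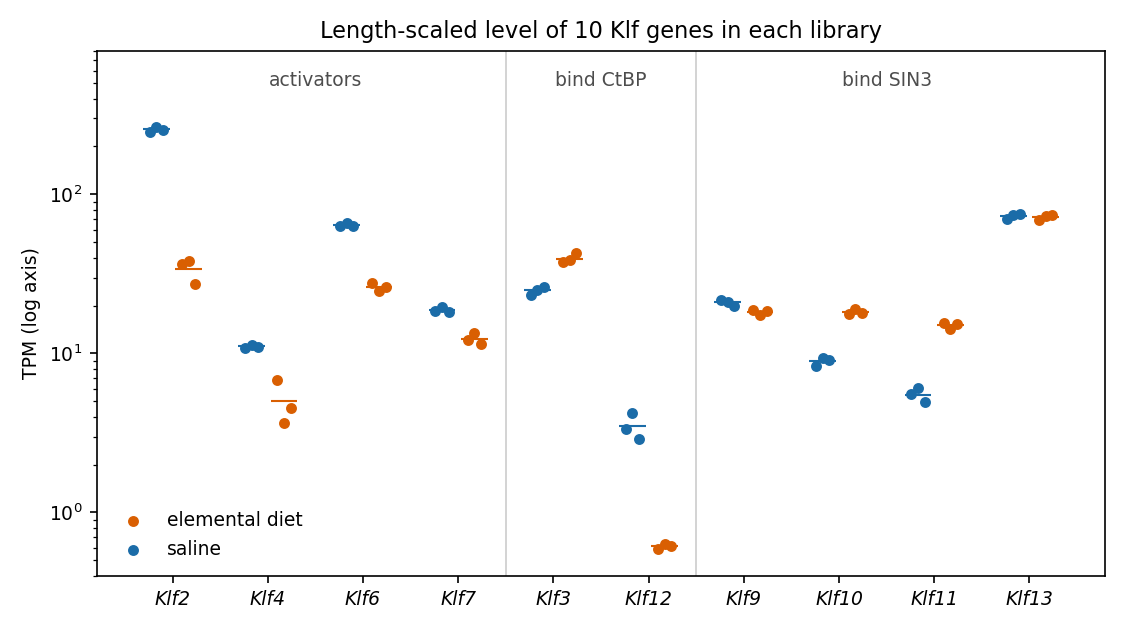
TPM (log axis) of the 10 Klf genes in each of the 6 libraries, grouped by the class of their partners, with points for libraries and short lines for group means. Klf2 stood at 248 to 267 TPM with saline and 27.4 to 37.9 with elemental diet, while the Klf13 points of both groups lay between 69.0 and 74.8.

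As a share of the summed TPM of the 10 genes, a value that does not depend on how libraries are scaled to each other, Klf2 made up 52.4%, 53.0% and 52.4% in the saline libraries. In the elemental diet libraries its share was 15.1%, 15.7% and 11.5%. The share of Klf13 was 29.8% ± 1.24 with elemental diet, against 15.0% ± 0.369, and that of Klf3 16.4% ± 1.35 against 5.11% ± 0.273. Klf10 and Klf11 had shares of 7.54% ± 0.288 and 6.23% ± 0.281 with elemental diet, and of 1.84% ± 0.0649 and 1.13% ± 0.0949 with saline. The activators together took 71.9% ± 0.355 with saline and 32.1% ± 2.69 with elemental diet, and the SIN3-binding factors 22.3% ± 0.224 and 51.2% ± 1.35. In share, the class lost mainly what Klf2 lost. Klf4, Klf6 and Klf7 together took 18.03% ± 1.09 with elemental diet, against 19.3% ± 0.267, with overlapping groups. This does not mean that their levels held, because a smaller Klf2 share leaves more for the other genes. In TPM all 3 were lower with elemental diet: Klf6 at 26.1 against 64.2, Klf7 at 12.3 against 18.7 and Klf4 at 5.00 against 11.1. TPM are not scaled between libraries for composition, and in the comparison of reads below these falls were smaller. There the log2 fold changes of Klf6, Klf7 and Klf4 were -0.90, -0.21 and -0.76, against -1.30, -0.60 and -1.15 in TPM. Among the 9 members other than Klf2, these 3 genes made up 21.0% ± 1.48 of the summed TPM, against 40.7% ± 0.552 with saline, and the SIN3-binding factors 59.6% ± 0.823 against 47.0% ± 0.202. Shares of Klf4 overlapped between the groups, at 1.51% to 2.80% with elemental diet and 2.26% to 2.30% with saline. The summed TPM itself was 240.8 ± 2.29 with elemental diet and 487 ± 15.3 with saline, and without Klf2 it was 207 ± 3.49 and 231 ± 5.83. Over all genes tested, TPM without overlap were lower with elemental diet for 49.7% and higher for 29.3%. A lower sum of TPM does not by itself show lower levels.

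**Figure D2:**
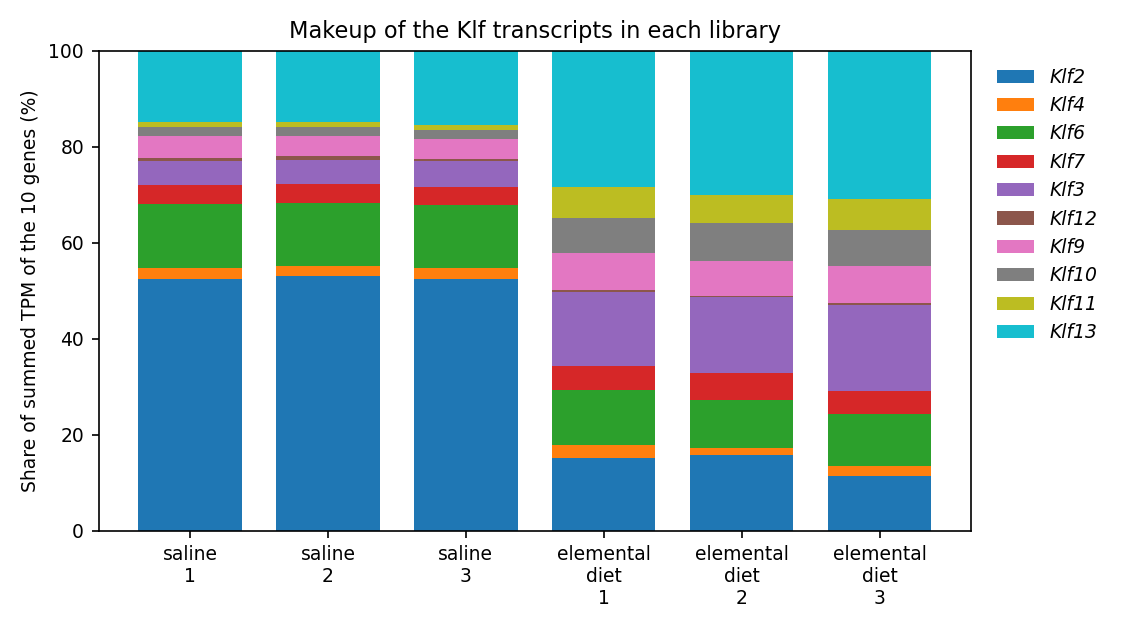
Share of each gene in the summed TPM of the 10 Klf genes (%), 1 stacked bar per library. Klf2 takes 52.4% to 53.0% of the bar in the 3 saline libraries and 11.5% to 15.7% in the 3 elemental diet libraries. There Klf13, Klf3, Klf10, Klf11, Klf9 and Klf7 take more. A larger share need not mean a higher level: TPM of Klf13 overlapped between the groups, and those of Klf7 and Klf9 were lower with elemental diet. In normalized CPM, which are scaled between libraries, Klf7 was lower with elemental diet, and Klf9 and Klf13 were higher.

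Reads per gene were then compared between the groups, to ask which of these transcripts differ when mice on 5-FU receive the diet. All 10 members passed edgeR's quasi-likelihood test (adjusted p, by Benjamini-Hochberg, below 0.05). Klf3, Klf9, Klf10, Klf11 and Klf13 were higher with elemental diet, and Klf2, Klf4, Klf6, Klf7 and Klf12 lower. Over all genes tested 78.1% passed, 38.0% higher and 40.2% lower, so passing the test does not by itself set the members apart. Changes over 2-fold were seen in 5 of the 10 (42.8% of all genes), 3 of them higher and 2 lower, where 19.1% and 23.7% of all genes were. The median log2 fold change was 0.02 over the members and -0.08 over all genes, and the median size of the change, whatever its direction, was 0.97 and 0.87. Normalized CPM did not overlap between the groups for any of the 10, as for 81.0% of all genes (39.0% higher and 41.9% lower with elemental diet). TPM values did not overlap for 9 of 10, all but Klf13, with 3 higher and 6 lower, as for 78.9% of all genes (29.3% higher and 49.7% lower).

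All 4 activators were lower with elemental diet. Klf2 (chromosome 8, 72319033 to 72321656, plus strand) had 26.0, 27.8 and 20.0 CPM in the elemental diet libraries, against 134, 144 and 139 in the saline libraries. Every saline library lay far above every elemental diet library, and the third elemental diet library was the lowest. This was a 5.64-fold fall (log2 fold change -2.50, SE 0.10, edgeR adjusted p = 3.5e-09). By its change Klf2 lay at the 5.16th percentile of all genes tested. The summed B and T cell markers were 7.15-fold and 7.07-fold lower in the same libraries, and their part in the fall of Klf2 was not tested. Klf2 and Klf4 also act in endothelium under flow. Of 8 endothelial markers 5 were lower with elemental diet and 2 higher, while their sum was 708 to 828 CPM, against 672 to 707, and their part was not tested either.

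Klf6, an activator induced in macrophages and wounded tissue (chromosome 13, 5861482 to 5870394), had 45.8, 41.6 and 44.3 CPM in the elemental diet libraries, and 80.1, 84.0 and 81.5 in those of the saline group. The spread within each group was small beside the gap. It fell 1.87-fold (log2 fold change -0.90, SE 0.05, adjusted p = 2.2e-09).

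Klf4, which drives monocyte differentiation and is also known from stem cell reprogramming (chromosome 4, 55527143 to 55532466), had 7.97, 4.28 and 5.47 CPM in the diet group, against 9.73, 10.1 and 10.2 in the saline group. The elemental diet libraries were spread widely and the first was the nearest to saline. The log2 fold change was -0.76 (SE 0.19, adjusted p = 0.00268) and ranged from -1.02 without the first elemental diet library to -0.56 without the second. In that first library the adipocyte markers summed to 87.9 CPM, against 3.40 and 2.85 in the other elemental diet libraries, and the fibroblast and stromal markers to 870 CPM against 562 and 464. The first saline library also held 86.2 CPM of adipocyte markers, and had the lowest Klf4 of the saline libraries. Macrophage and monocyte markers summed to 404 to 485 CPM in the diet group, against 1014 to 1223, and the part of any of these cells in the Klf4 values was not tested.

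Klf7, a factor known from neurons and from leukaemia (chromosome 1, 64029447 to 64122282, minus strand), differed least of the activators. Its CPM were 39.5, 45.4 and 38.5 in the diet group, against 46.7, 49.6 and 46.6. The second elemental diet library came close to the saline range. The log2 fold change was -0.21 (SE 0.07, adjusted p = 0.013), and the call was lost without the third elemental diet library (-0.15, adjusted p = 0.0749) and in DESeq2 (-0.17, adjusted p = 0.0653). Of its reads 48.3% to 49.6% were unique, the rest being shared with other places. The opposite-strand gene Gm26649, which overlaps Klf7, had 367 reads in the diet group and 250 in the saline group, fewer than the 1735 and 2454 shared reads of Klf7. The log2 fold change of Klf7 was -0.24 when unique reads alone were used (adjusted p = 0.0175).

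The 2 CtBP-binding repressors went in opposite directions. Klf3 (chromosome 5, 64803388 to 64832901), known for repressing genes in erythroid and B cells and in fat, had 164, 175 and 190.4 CPM in the diet group, against 80.6, 85.1 and 91.2 in the saline group. It rose 2.06-fold (log2 fold change 1.04, SE 0.06, adjusted p = 2.7e-09). Klf12, a repressor of the AP-2 alpha gene (chromosome 14, 99870632 to 100284679), had 3.93, 3.94 and 3.36 CPM, against 22.1, 19.7 and 19.2. The groups of both genes lay well apart. Klf12 fell 5.41-fold (log2 fold change -2.44, SE 0.12, adjusted p = 1.8e-10), close in size to Klf2. In TPM the ratio of Klf3 to Klf12 was 64.4 ± 4.63 with elemental diet and 7.33 ± 1.59 with saline. Klf1, whose product activates Klf3 in erythroid cells, stood at 879 ± 10.6 TPM with elemental diet and 20.7 ± 3.17 with saline. That was 3.65 ± 0.0753 times the summed TPM of the 10 members with elemental diet and 0.0426 ± 0.00732 times with saline. Erythroid markers were 12.2-fold higher with elemental diet. The part of Klf1 or of erythroid cells in the rise of Klf3 was not tested.

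Klf10 and Klf11, the TGF-beta-inducible members of the SIN3-binding class, rose. Klf10 (chromosome 15, 38291463 to 38300706) had 29.5, 31.9 and 30.2 CPM in the diet group, against 10.97, 11.6 and 11.5, a 2.69-fold rise (log2 fold change 1.43, SE 0.08, adjusted p = 7.4e-10). Klf11, which is close to Klf10 in sequence and in its partners (chromosome 12, 24651274 to 24662789), had 26.7, 26.0 and 27.3 CPM, against 7.27, 8.16 and 6.86. Its rise of 3.59-fold was the largest among the 10 (log2 fold change 1.84, SE 0.09, adjusted p = 3.0e-10). In both genes the libraries of a group lay close together and far from the other group. The proliferation markers summed to 3342 to 3973 CPM in the diet group, against 126 to 133, and the erythroid markers were 12.2-fold higher. Neutrophil markers summed to 212 to 247 CPM, against 7.81 to 10.4, and platelet markers to 3535 to 4458 CPM, against 1519 to 1637. The part of any of these cells in the rises was not tested.

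Klf13 and Klf9 differed little. Klf13, an activator of Ccl5 in T cells that is also expressed in red cell precursors (chromosome 7, 63886351 to 63938915), had 208, 224 and 225 CPM in the diet group, against 168, 175 and 178 (log2 fold change 0.33, SE 0.05, adjusted p = 3.2e-05). Its TPM, at 69.0, 72.8 and 73.7 against 70.2, 74.4 and 74.8, overlapped. Klf9, a target of glucocorticoid and thyroid hormone receptors (chromosome 19, 23141226 to 23166911), had 26.9, 25.9 and 26.5 CPM, against 22.5, 23.2 and 21.2 (log2 fold change 0.25, SE 0.07, adjusted p = 0.00647). In TPM its order was the other way, with 18.3 ± 0.752 with elemental diet and 20.9 ± 0.826 with saline.

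These 2 directions rest on how the libraries are scaled to each other. Over all genes the median log2 fold change was -0.08 with TMM scaling, -0.04 with RLE, -0.35 with upper quartile scaling and -0.39 with none. Klf9 stood at 0.25, 0.29, -0.02 and -0.06 in this order, and Klf13 at 0.33, 0.38, 0.06 and 0.03. Without any scaling 5408 of all genes were called higher and 9262 lower. Under upper quartile scaling and none neither gene passed the test, with adjusted p = 0.769 and 0.465 for Klf9 and 0.188 and 0.556 for Klf13. Relative to the median of all genes the log2 change of Klf9 was 0.33 under each of the 4 scalings, and that of Klf13 was 0.42. This sameness was given in advance, because scaling shifts all genes and their median nearly alike. The other 8 members passed in 1 direction under all 4 scalings, as 68.5% of all genes did. Against a fold change of 1.5, the test called 6 members: Klf3, Klf10 and Klf11 higher, and Klf2, Klf6 and Klf12 lower. That test called 50.8% of all genes, 24.2% higher and 26.6% lower, near the share of the members.

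**Figure D3:**
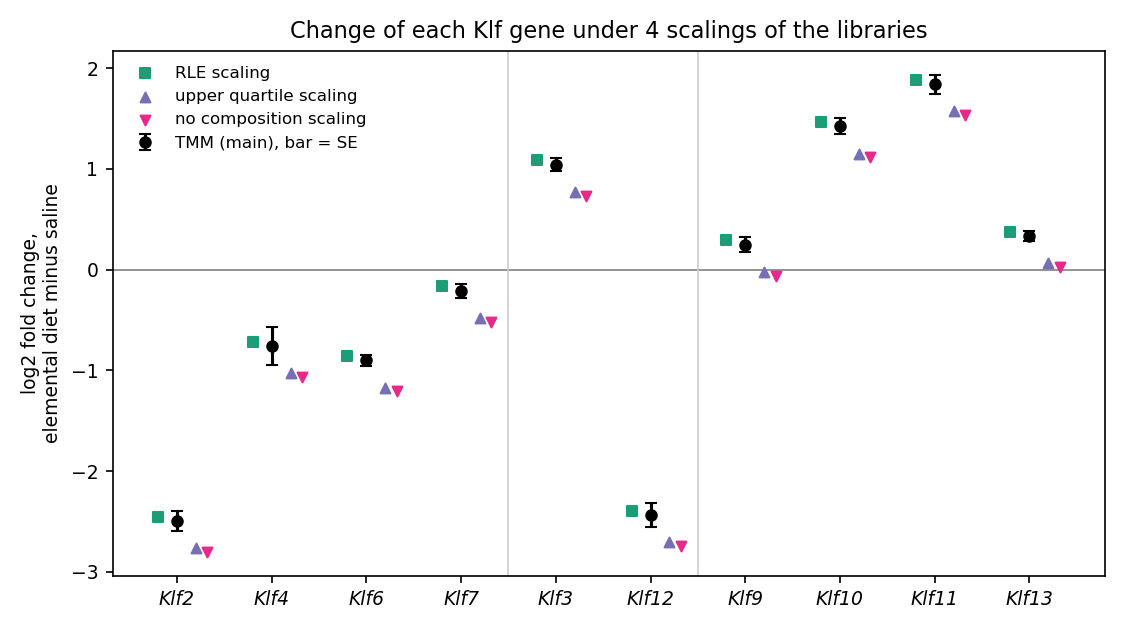
Log2 fold change of each Klf gene, elemental diet minus saline, under 4 scalings of the libraries, with the SE of the TMM fit as bars. Klf9 and Klf13 lie at or near 0 under upper quartile scaling and none, while the other 8 genes keep their direction.

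Reads in introns come mostly from RNA that is not yet spliced, and the files count them apart from exon reads. In exon reads 9 of the 10 members passed the test, 4 higher and 5 lower (79.3% of all genes, 38.6% and 40.7%), and Klf9 did not (log2 fold change 0.10, adjusted p = 0.213). In intron reads 9 members had enough reads, and 4 were higher and 3 lower (65.8% of all genes, 32.9% in each direction). Klf2 had 21, 26 and 16 intron reads with elemental diet and 155, 140 and 99 with saline. Its log2 fold change was -1.87 in intron reads (SE 0.24, adjusted p = 2.5e-07) and -2.61 in exon reads. Klf12 fell in both, with log2 fold changes of -2.17 and -2.20, and Klf3 rose by 0.89 and 0.96. Klf4 had 0 to 15 intron reads per library and was not tested there.

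A model with both read classes and the library as a block tested whether exon and intron reads changed differently. Of 9 members 2 passed, both with a lower exon than intron change, where 39.8% of all genes passed, 20.1% in that direction and 19.8% in the other. For Klf2 the exon change was lower than the intron change by 0.82 on the log2 scale (-0.82, SE 0.24, edgeR adjusted p = 0.00842), and the call was lost without the second elemental diet library (-0.74, adjusted p = 0.0625). For Klf9 the difference was -0.89 (SE 0.20, adjusted p = 0.00129), with a rise of 0.91 in intron reads (adjusted p = 0.000184) beside the exon value of 0.10. Without the first saline library Klf10 passed as well (-1.04, adjusted p = 0.0186). The raw intron reads of Klf9 were 108, 119 and 86 with elemental diet and 88, 119 and 76 with saline. In this test each read class was scaled to itself, and over all genes introns took 8.39% to 8.82% of reads with elemental diet and 13.7% to 14.4% with saline. With the exon scaling used for both classes, the median difference of all genes moved from -0.04 to 0.63. Then Klf2 and Klf9 no longer passed (-0.15 and -0.22), and Klf3, Klf6 and Klf13 passed with positive values of 0.67, 0.83 and 0.69, so which members differ depends on this choice.

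**Figure D4:**
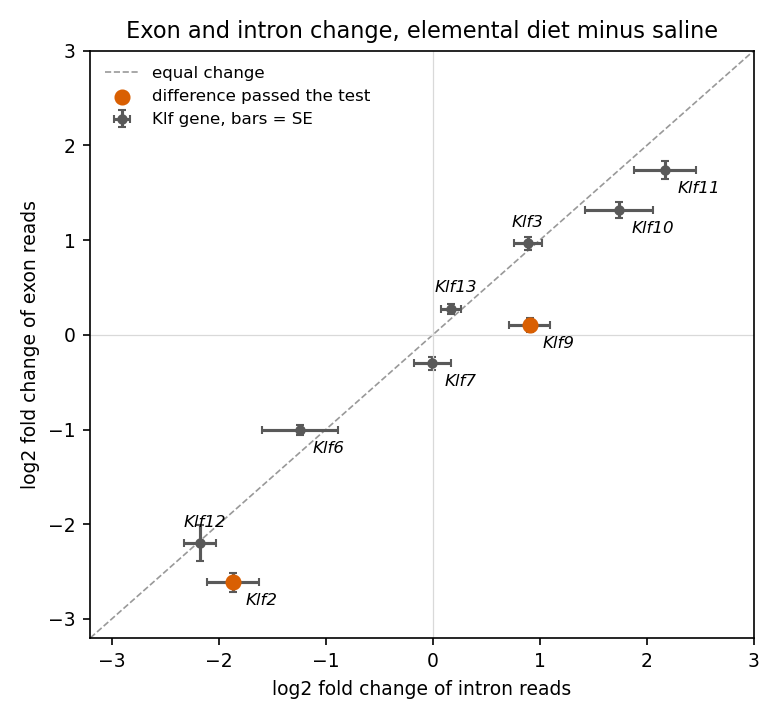
Log2 fold change of exon reads (vertical axis) against that of intron reads (horizontal axis) for 9 Klf genes, elemental diet minus saline, with SE bars and a dashed line of equal change. The points come from separate fits of the 2 read classes. Klf2 and Klf9, whose difference passed the test in the joint model (-0.82 and -0.89), lie below the line.

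The intron share of a gene's own reads needs no scaling between libraries. It was highest for Klf12, a gene with long introns, at 56.3% ± 4.82 with elemental diet and 65.7% ± 6.98 with saline, where the groups overlapped. Klf3, Klf6, Klf7 and Klf13 had a lower share with elemental diet with no overlap, as 46.5% of all genes did (51.8% in either direction, 5.34% higher). For Klf13 it was 6.16% ± 0.638 against 9.59% ± 1.204, and for Klf3 4.39% ± 0.799 against 6.78% ± 0.611. For Klf7 it was 7.27% ± 0.332 against 8.81% ± 0.308. With unique reads alone the Klf7 difference, elemental diet minus saline, moved to -3.09 percentage points. For each of these 4 genes p was 0.1 in an exact permutation test (two-sided), the smallest value that 3 against 3 libraries allow. For Klf2 the share was 3.09% ± 0.111 and 2.81% ± 0.574 (exact p = 0.6), and for Klf9 14.3% ± 1.51 and 12.6% ± 2.44 (exact p = 0.3).

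Among the other Klf genes and the related SP factors, 10 of 16 could be tested, of which 5 were higher, 2 lower and 3 did not pass, where 38.0% of all genes were higher and 40.2% lower. Klf1 was 55.3-fold higher (538 ± 7.68 CPM against 9.71 ± 1.27, adjusted p = 3.5e-15). Klf16, which also binds SIN3, stood at 60.8 ± 1.47 and 24.6 ± 1.46 CPM, a 2.48-fold rise beside 2.69-fold for Klf10. Klf5, Klf8 and Sp3 were the other genes that rose, by 2.68, 0.59 and 0.44 on the log2 scale, and Klf15 and Sp6 fell, with -1.70 and -2.52. These 5 were named after their values were seen, and the call of Klf8 was lost under upper quartile scaling and none. Sp1, Sp2 and Sp4 had log2 fold changes of 0.08, 0.05 and 0.02, and passed as lower under upper quartile scaling and none. Klf1 and Klf5, which also act mainly as activators, were thus higher where the 4 activators among the members were lower.

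Of 9 kinases and factors that act on Klf2 and Klf4, 8 fell and 1 rose (median log2 fold change -0.85), where 40.2% of all genes fell and 38.0% rose (median -0.08). Foxo1, which switches on Klf2 in lymphocytes, stood at 28.3 ± 1.92 CPM, against 149 ± 3.35 with saline, a 5.26-fold fall, and Mef2c, a MEF2 factor abundant in B cells, fell 2.74-fold. Hdac5, named after its value was seen, was the gene that rose, by 0.16, and its call was lost under upper quartile scaling and none, with unique reads, and without elemental diet library 2 or 3 or saline library 1 or 3. The Klf2 promoter holds the MEF2 match printed above. Whether any of these 9 genes had a part in the fall of Klf2 was not tested. The B and T cell markers were 7.15-fold and 7.07-fold lower in the same libraries.

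Of 9 tested genes reported as targets of single factors 7 fell (median -1.76), where 40.2% of all genes fell (median -0.08). S1pr1, the receptor that lets lymphocytes leave lymphoid organs, stood at 47.1 ± 3.94 CPM, against 308 ± 13.2 with saline, and fell 6.55-fold. It is a target of Klf2 and itself a lymphocyte gene, and the B and T cell markers were lower in the same libraries by the folds given above. Cdkn1a and Nos3, named after their values were seen, did not pass (log2 fold changes 0.07 and -0.15). Under RLE scaling Cdkn1a passed as higher, and in DESeq2 1 gene of the list was called higher. Ccl5, which Klf13 activates in T cells, fell 7.56-fold while Klf13 differed little, also named after its values were seen.

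Among the corepressor genes both CtBP genes rose, where 38.0% of all genes did. Ctbp1 rose 2.12-fold to 461 ± 20.3 CPM and Ctbp2 2.36-fold to 29.3 ± 1.45. Of 10 genes of the SIN3 complex 9 rose and 1 fell (median 0.65), where 38.0% of all genes rose and 40.2% fell (median -0.08). Of these, Sin3a turned to lower under upper quartile scaling and none, and Suds3 lost its call with none. The histone-binding subunit genes Rbbp7 and Rbbp4, which also serve other chromatin complexes, rose 2.59-fold and 2.28-fold. Sin3b, named after its value was seen, was the gene that fell, by 0.12 (adjusted p = 0.0497), a call lost under RLE scaling, with no filter on low counts, in DESeq2, and without elemental diet library 2 or 3 or saline library 1 or 3. Among 4 acetyltransferase genes Kat2b rose 1.65-fold and Kat2a 1.25-fold, Crebbp fell 1.85-fold and Ep300 had a log2 fold change of -0.12 that did not pass (adjusted p = 0.119). Ep300 passed as lower with the replicate block (-0.13, adjusted p = 0.0414), with unique reads or exon reads, and under upper quartile scaling and none. The calls of Kat2a, and of the ubiquitin ligase genes Wwp1, Fbxw7 and Siah1a (0.33, 0.21 and 0.30), were lost under upper quartile scaling and none. Of the other ligases that act on these factors, Btrc rose 2.54-fold and Smurf1 fell 3.04-fold.

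Of 12 genes of the TGF-beta pathway, which induces Klf10 and Klf11, 11 fell (median -0.87), where 40.2% of all genes fell (median -0.08), while these 2 members rose. The receptor gene Tgfbr2 fell 3.80-fold, from 235 ± 10.0 CPM with saline to 61.9 ± 5.61, and Skil, a TGF-beta-induced inhibitor of SMADs, fell 2.46-fold. Because the list mixes inhibitors with ligands and receptors, its count does not give the direction of pathway activity. The part of this pathway in the rises of Klf10 and Klf11 was not tested. Tgfb1, the ligand gene, was the 1 that rose (0.35), named after its value was seen, and its call was lost under upper quartile scaling and none. Of 7 glucocorticoid response genes, a set to which Klf9 is close, 5 fell, 1 rose and 1 did not pass (median -0.44), where 40.2% of all genes fell and 38.0% rose. Tsc22d3, which encodes GILZ, fell 3.92-fold, and Sgk1 fell 2.42-fold. Nr3c1, Fkbp5 and Per1 fell by 0.37, 0.44 and 0.45 on the log2 scale, Dusp1 rose by 0.87 and Zbtb16 had -0.09, all named after their values were seen.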

How the data were processed

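RNA-seq libraries were made with oligo-dT selection and sequenced as 75 bp paired reads, per the labels' protocols. Per the file headers, the authors deposited gene-level read counts in whole numbers, for exons and introns, total and unique, with TPM and RPKM values computed by the authors. The aligner, counter, strand setting and any filters were not given in the sources used here. Both GRCh37 and GRCm38 are named by the submitters' processing notes, and coordinates are those of the files. Promoters come from RefSeq (GRCm38.p6).

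Total gene reads were tested two-sided by glmQLFTest after a robust glmQLFit (edgeR 4.0.16, R 4.3.3), using TMM scaling, filterByExpr and Benjamini-Hochberg adjustment over all genes tested. The SE, an approximation, is the size of the log2 fold change over the root of the F statistic. CPM are TMM-scaled. Exon and intron reads were also fitted jointly, with TMM factors per class. Alternatives included DESeq2 1.42.0. Both fits were tested on simulated data. Few genes were changed there, in either direction alike, so the scaling between libraries could not be checked. The main fit recovered 12.4% of 1.2-fold and 87.6% of 2-fold changes. The joint fit recovered 37.2% of 1.5-fold and 82.8% of 2-fold differences. Replicates differed by at least 2.82 times sampling noise (median chi-square per gene). Where no read was counted, up to 3 reads per library remain possible, by counting error alone.

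The members, gene lists and tests were chosen with earlier results of these data known. Named were all members, Klf1, the 2 genes with the smallest p of each list and all genes of lists of up to 5; 1 of these genes is not reported here.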

Additional observations from a re-analysis of the deposited data

How the results depend on the processing

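Fold changes of the members were recomputed under 16 alternatives each. Of 160 values 149 kept direction and call, 9 lost the call and 2, for Klf9, turned sign (-0.0237 with upper quartile scaling and -0.0598 with none). The members called higher fell from 5 to 3 with upper quartile scaling, with none and against a fold change of 1.5, where those called lower also fell to 3. Leaving out 1 replicate in turn gave 5 higher each time and 4 to 5 lower. Over all genes the test against 1.5-fold called 4432 higher and 4862 lower, against 6951 and 7352. Of the pathway genes 25 were higher, falling to 16 with no scaling and 12 against 1.5-fold. Fbxw7 turned to -0.0653 with upper quartile scaling and -0.10 with none, and Siah1a to -0.0023 with none. With exon scaling for both read classes, members with a positive exon minus intron difference went from 0 to 3 and with a negative one from 2 to 0. Klf3 turned from -0.0028 to 0.67. Without 1 replicate the negative count was 1 to 3. The cause of these shifts was not tested, beyond the shift in the median of all genes given above.

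Same-numbered libraries deviated together in 2 of 3 pairs (correlations 0.18, -0.03 and 0.14), and not every library correlated best with its own number, so the numbers were not taken to pair the mice. With the replicate block 6925 genes were higher and 7316 lower, as were 5 and 5 members, and no call of a member changed, while Ep300 passed as lower (adjusted p = 0.0414). Klf4 and Klf12, with the fewest reads, have the widest errors.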
